A study of Mus musculus with 11 samples.

Results

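The macrophage gene module is a set of 34 genes of macrophages and monocytes. Its members were the rows of the deposited count table whose gene name was on a list of 34 names, and all 34 were found among 46078 rows. All 34 passed the filter on low counts, among 16365 tested genes. The list was drawn up with results of these libraries in view, in which macrophage genes were high in CD127-PD-1+ cells. The members were thus chosen by their levels in CD127-PD-1+ against CD127+PD-1- cells, and these comparisons are given below as a description with no test. The comparisons of CD4 with CD8 cells did not enter the choice and were tested.

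RNA came from T cells flow-sorted out of kidneys of wild-type mice with glomerulonephritis. Every group shared the disease protocol: immunisation with recombinant mouse MPO (myeloperoxidase), then low-dose sheep globulin against mouse basement membrane, with kidneys taken 21 days later. The groups were CD4+CD127-PD-1+ cells (n = 2, a further sample having failed quality control per the labels), CD4+CD127+PD-1- cells (n = 3), CD8+CD127-PD-1+ cells (n = 3) and CD8+CD127+PD-1- cells (n = 3). CD127 is the alpha chain of the interleukin-7 receptor and PD-1 is an inhibitory receptor of stimulated T cells. Each library held the cells of 3 pooled mice, so the spread between libraries is a spread between pools. The labels name neither the sex nor the age of the animals. Animals given the IL-7 receptor neutralisation named in the series title were not analysed here. Values are CPM, read counts relative to the library total after TMM scaling (trimmed mean of M values).

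Macrophages take up dying cells, immune complexes and microbes and degrade them in lysosomes. They depend on the growth factor receptor encoded by Csf1r and on the transcription factors PU.1 (gene Spi1) and C/EBP alpha (gene Cebpa). In inflamed kidneys they gather around glomeruli and tubules beside T cells. Several genes that are called macrophage genes are also transcribed by lymphocytes. By background knowledge, 19 members were classed as macrophage-restricted among the cells of a lymphocyte sort. A further 10 are also transcribed by T cells or a T cell subset (Ctsb, Ctsd, Ctss, Lgmn, Cebpb, Hmox1, Itgam, Tyrobp, Cd86 and Tlr2). The other 5 are also transcribed by plasmacytoid dendritic cells (pDC) or B cells (Pld4, Tlr7, Mpeg1, Cybb and Spi1). The classes were not tested, and they are not exclusive, since pDC also transcribe Tyrobp.

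Depth per library, in counts assigned to genes, lay between 10.6 M and 16.1 M, and the common biological coefficient of variation was 0.244. The 14 pan-T markers summed to 2860 and 3718 CPM in CD4+CD127-PD-1+ libraries, against 2992 to 3641 CPM in CD4+CD127+PD-1- libraries. They summed to 2284 to 3193 CPM in CD8+CD127-PD-1+ libraries, against 2668 to 3278 CPM in CD8+CD127+PD-1- libraries. The T cell label was therefore borne out by its markers in every library. Il7r and Pdcd1, which encode CD127 and PD-1, followed the sort in all 11 libraries.

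The macrophage-restricted members separated the sorted states in both lineages. Their summed level averaged 1826 ± 922 CPM in CD4+CD127-PD-1+ cells and 121 ± 36.8 in CD4+CD127+PD-1- cells (SD, n = 2 and 3), a ratio of 15.04. The 2 CD4+CD127-PD-1+ libraries gave 2478 and 1174 CPM. In CD8 cells it averaged 1966 ± 670 CPM in CD127-PD-1+ cells and 133 ± 42.9 CPM in CD127+PD-1- cells (SD, n = 3 each), a ratio of 14.8. The lowest CD127-PD-1+ library, at 1174 CPM, stood above the highest CD127+PD-1- library, at 164 CPM. The 10 members also transcribed by T cells differed less, with sums of 1190 ± 247 CPM in CD4+CD127-PD-1+ cells and 452 ± 86.5 in CD4+CD127+PD-1- cells (SD, n = 2 and 3). In CD8 cells that sum was 1413 ± 352 CPM in CD127-PD-1+ cells and 515 ± 112 CPM in CD127+PD-1- cells (SD, n = 3 each). The 5 members shared with pDC or B cells overlapped between the CD4 states, at 421 and 935 CPM in CD127-PD-1+ libraries against 373 to 696 CPM in CD127+PD-1- libraries. They did not overlap between the CD8 states, at 764 to 1110 CPM in CD127-PD-1+ libraries against 299.9 to 641 CPM in CD127+PD-1- libraries. In bulk libraries, fewer cells of a type and less RNA per cell cannot be told apart.

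The make-up of the module differed between the states. The restricted class supplied 48.4 ± 4.88% of the summed member CPM in CD4+CD127-PD-1+ cells and 11.6 ± 3.01% in CD4+CD127+PD-1- cells (SD, n = 2 and 3). In CD8 cells it supplied 44.7 ± 3.92% in CD127-PD-1+ cells and 12.7 ± 4.08% in CD127+PD-1- cells (SD, n = 3 each). In CD4+CD127+PD-1- cells the pDC or B cell class held 44.9 ± 4.52% and the T cell class 43.4 ± 3.63% (SD, n = 3). All 34 members together made up 0.274% and 0.496% of the raw counts in CD4+CD127-PD-1+ libraries, against 0.0875% to 0.152% in CD4+CD127+PD-1- libraries. In CD8 cells the share was 0.273% to 0.444% in CD127-PD-1+ libraries, against 0.0881% to 0.1504% in CD127+PD-1- libraries.

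**Figure D1:**
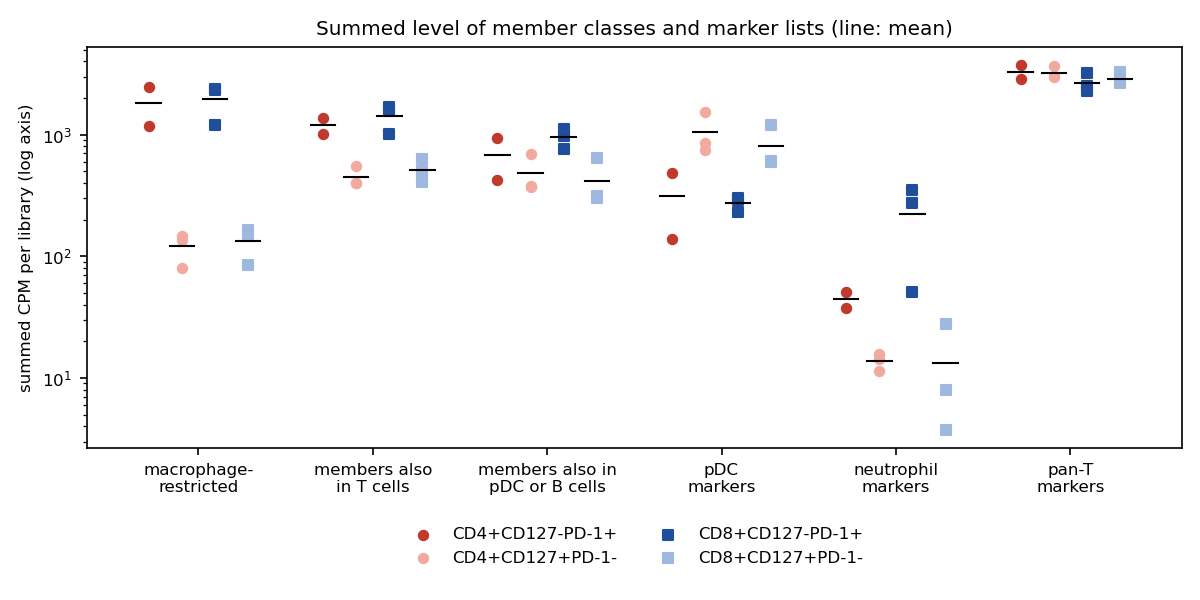
Summed CPM per library (log axis) of the 3 member classes and of 3 marker lists, with the mean as a line, for the 4 sorted groups. The restricted class is at 1174 CPM or more in the 5 CD127-PD-1+ libraries and at 164 CPM or less in the 6 CD127+PD-1- libraries, while the pan-T sum lies between 2284 and 3718 CPM in all 11.

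Fold changes by class followed the same order. Between CD4+CD127-PD-1+ and CD4+CD127+PD-1- cells, 27 of 34 members were over 2-fold higher and 0 were over 2-fold lower, where 11.04% of all tested genes were over 2-fold higher and 7.66% over 2-fold lower. The fitted log2 fold change had a median of 4.83 over the 19 restricted members, 2.03 over the 10 T cell members and 0.28 over the 5 pDC or B cell members, beside 0.02 over all tested genes. Over 2-fold higher were 18 of 19, 8 of 10 and 1 of 5 members of these classes. In CD8 cells 25 of 34 members were over 2-fold higher and 0 over 2-fold lower, beside 11.1% and 7.43% of all tested genes. The medians were 4.19, 2.07 and 0.87 for the same classes, beside 0.01 over all tested genes, and 17 of 19, 6 of 10 and 2 of 5 members were over 2-fold higher. Libraries of the 2 states did not overlap, with CD127-PD-1+ on top, for 27 of 34 members in CD4 cells (21.3% of all tested genes) and for 29 of 34 in CD8 cells (17.96%). Nothing is read from these counts, since the same contrasts chose the members, and the difference between the classes was not tested.

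**Figure D2:**
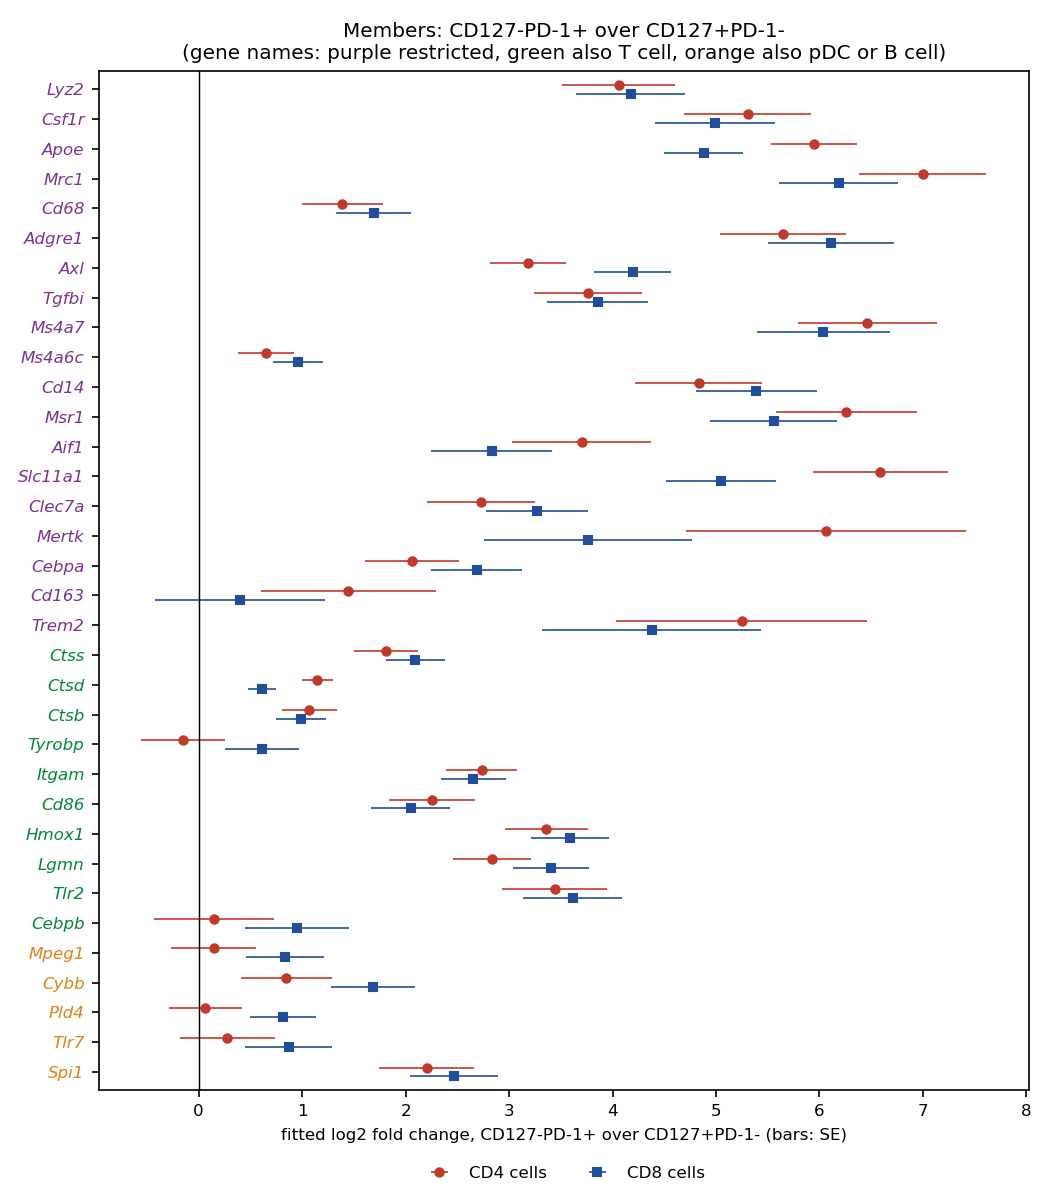
Fitted log2 fold change of each member, CD127-PD-1+ over CD127+PD-1- (x axis, bars show the SE), for CD4 cells (circles) and CD8 cells (squares), ordered by class and by mean level. Most restricted members lie between 2 and 7, the proteases lie between 0.61 and 3.40, and Tyrobp, Pld4, Mpeg1 and Tlr7 lie between -0.15 and 0.87.

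PU.1 binds DNA around a GGAA core, and many promoters active in macrophages hold such sites. The 250 bases before each listed start of a gene (RefSeq, GRCm38.p6) were searched on both strands. The motifs were GAGGAA with its complement TTCCTC, and TTGCNNAA, a form of the C/EBP site, with its complement TTNNGCAA. A gene with several starts counted when any of them held a match. The motifs were counted independently, so that overlapping matches would each count. Promoters were held for 24 of 34 members. GAGGAA or TTCCTC stood in 10 of these 24 genes (41.7%), beside 25.85% of 27025 genes in the whole promoter table. It stood in 8 of 15 restricted genes (53.3%), 2 of 6 T cell genes (33.3%) and 0 of 3 pDC or B cell genes. TTGCNNAA or its complement stood in 1 of 24 members (4.17%), beside 10.8% of all genes. A match of letters is a description and not a bound site.
The promoters shown are those of the most abundant restricted members with the PU.1 letters and of Ctss, the most abundant member of the T cell class, from base 250 to base 26 before the start, 5′ to 3′ on the gene's strand. Capitals mark GAGGAA or TTCCTC.
Mrc1, chr2:14229164-14229388, plus strand: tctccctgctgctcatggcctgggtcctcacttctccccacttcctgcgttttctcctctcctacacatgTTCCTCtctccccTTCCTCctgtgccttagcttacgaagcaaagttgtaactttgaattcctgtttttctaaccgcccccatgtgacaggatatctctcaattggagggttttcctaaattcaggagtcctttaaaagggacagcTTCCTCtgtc
Apoe, chr7:19699214-19699438, minus strand: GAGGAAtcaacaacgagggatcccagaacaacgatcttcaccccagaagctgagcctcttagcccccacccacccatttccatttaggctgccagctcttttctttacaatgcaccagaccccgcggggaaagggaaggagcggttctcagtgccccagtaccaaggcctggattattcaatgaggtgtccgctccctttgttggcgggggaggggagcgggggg
Cd68, chr11:69666196-69666420, minus strand: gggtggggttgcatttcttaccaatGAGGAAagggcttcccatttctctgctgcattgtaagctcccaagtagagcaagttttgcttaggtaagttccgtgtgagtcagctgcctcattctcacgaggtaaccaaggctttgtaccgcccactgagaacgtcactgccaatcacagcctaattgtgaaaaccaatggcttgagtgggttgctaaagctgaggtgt
Ctss, chr3:95526536-95526760, plus strand: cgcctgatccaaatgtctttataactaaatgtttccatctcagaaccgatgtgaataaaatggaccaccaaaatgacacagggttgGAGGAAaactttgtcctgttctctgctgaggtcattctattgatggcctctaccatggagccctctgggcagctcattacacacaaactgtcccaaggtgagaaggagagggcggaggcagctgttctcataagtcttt
Mrc1 holds 3 matches, which begin 180, 167 and 35 bases before the start and all read TTCCTC. Apoe, Cd68 and Ctss each hold 1 match, which begins 250, 225 and 164 bases before the start and reads GAGGAA. Apoe had further starts in the promoter table, not all with a match, and a start with a match is shown.

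**Figure D3:**
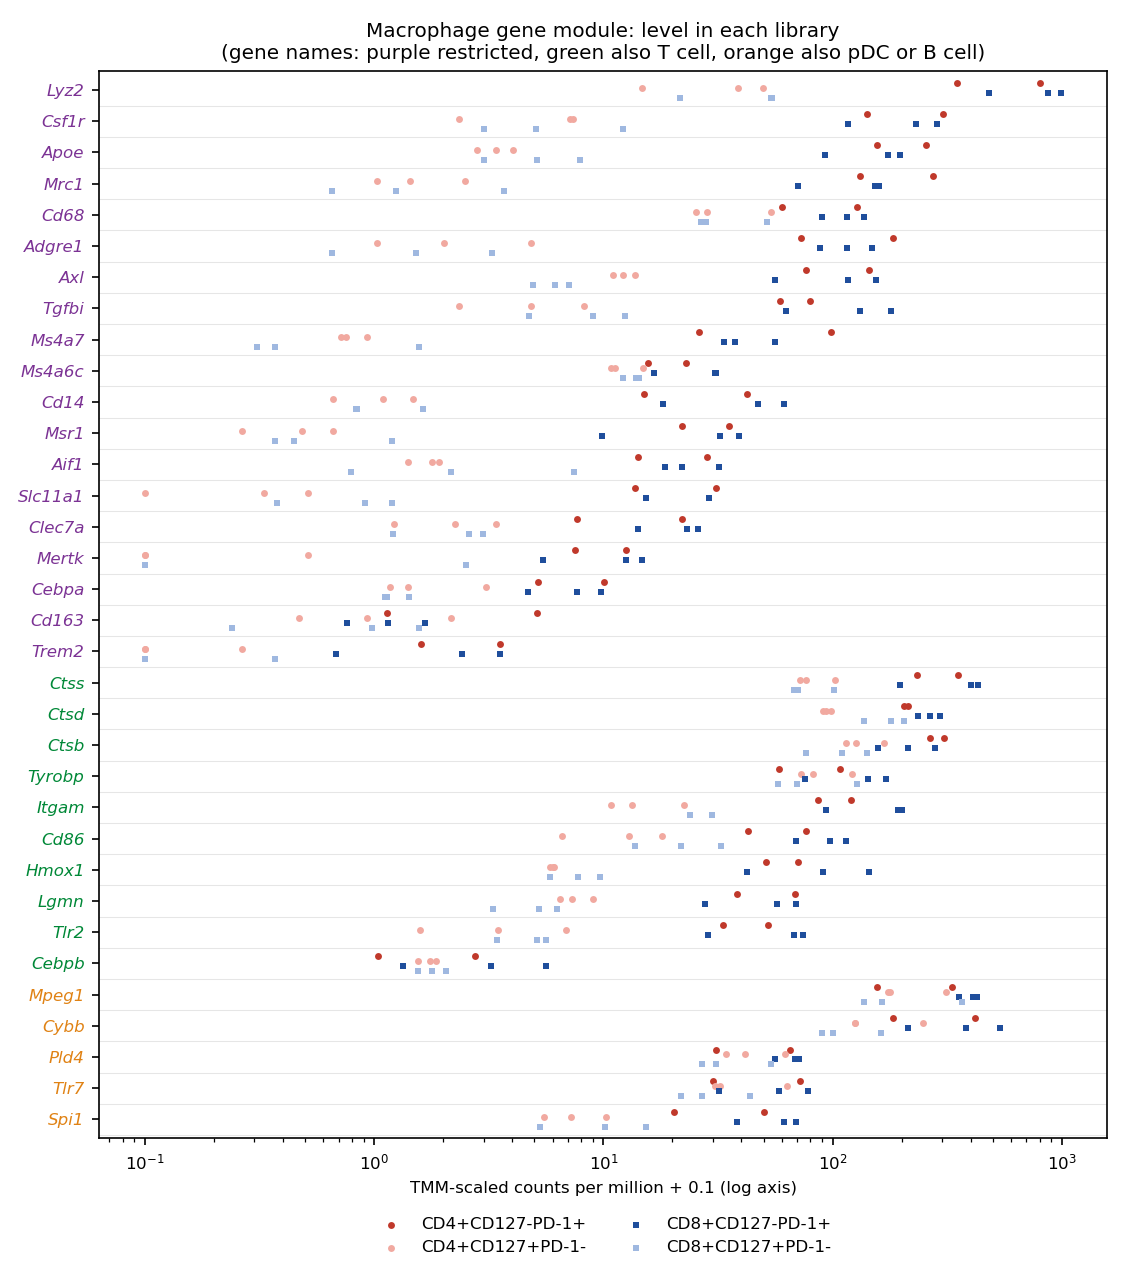
Level of each of the 34 members in each of the 11 libraries (x axis, TMM-scaled CPM plus 0.1 on a log axis), with CD127-PD-1+ libraries in dark and CD127+PD-1- libraries in light colours, circles for CD4 and squares for CD8 cells. The states stand apart for nearly all restricted members and are mixed for Tyrobp, Cebpb, Mpeg1 and Tlr7.

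Among the growth factor and clearance receptors, Csf1r and Axl were the most abundant. Csf1r (chromosome 18, 61100598 to 61132149, plus strand, GRCm38) encodes the receptor for CSF1 and IL-34, on which most macrophages depend. It measured 302 and 142 CPM in CD4+CD127-PD-1+ libraries, against 7.29, 7.07 and 2.23 CPM in CD4+CD127+PD-1- libraries. It measured 116, 231 and 285 CPM in CD8+CD127-PD-1+ libraries, against 4.98, 12.1 and 2.91 CPM in CD8+CD127+PD-1- libraries. Every CD127-PD-1+ library was above every CD127+PD-1- library, and the fitted log2 fold changes were 5.31 (SE 0.61) in CD4 and 4.99 (SE 0.58) in CD8 cells. Axl (chromosome 7, 25757273 to 25788705, minus strand) encodes a receptor tyrosine kinase for GAS6, which bridges it to dying cells. It measured 144 and 76.3 CPM in CD4+CD127-PD-1+ libraries, against 12.0, 10.9 and 13.6 CPM in CD4+CD127+PD-1- libraries. In CD8 cells Axl measured 55.7, 116 and 155 CPM in CD127-PD-1+ libraries, against 4.85, 6.96 and 6.03 CPM in CD127+PD-1- libraries. The states did not overlap in either lineage. Among CD127+PD-1- libraries the 3 CD4 ones stood above the 3 CD8 ones.

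The related receptor gene Mertk and the lipid-sensing receptor gene Trem2 were low throughout. Mertk ranged from 7.40 to 12.4 CPM in CD4+CD127-PD-1+ libraries, against 0 to 0.414 CPM in CD4+CD127+PD-1- libraries. In CD8 cells Mertk ranged from 5.33 to 14.6 CPM in CD127-PD-1+ libraries, against 0 to 2.42 CPM in CD127+PD-1- libraries, where 33 counts came from replicate 2 and 0 from the others. Trem2 stayed between 0.584 and 3.44 CPM in the 5 CD127-PD-1+ libraries. Its counts were 2, 0 and 0 in CD4+CD127+PD-1- libraries and 4, 0 and 0 in CD8+CD127+PD-1- libraries, so no fold change is given. A count of 0 in these libraries allows a level of up to 0.202 to 0.279 CPM (3 counts), which covers counting error only.

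Ligands of these receptors were measured in the same libraries. Of Csf1, Il34, Gas6 and Pros1, all but Il34 passed the filter on low counts. The list was chosen with earlier results of these libraries known, so its counts are no independent evidence. In CD4 cells, 2 of 3 were called higher in CD127-PD-1+ cells (6.81% of all tested genes) and 0 lower, and in CD8 cells 2 of 3 were called higher (9.05%) and 0 lower (edgeR quasi-likelihood test, Benjamini-Hochberg adjustment over all tested genes). Gas6 measured 12.8 and 6.49 CPM in CD4+CD127-PD-1+ libraries, against 0.746, 0.538 and 0.558 CPM in CD4+CD127+PD-1- libraries (log2 fold change 3.96, SE 0.66, adjusted p = 0.00378 by edgeR). Pros1 encodes protein S, the other bridging ligand of this receptor family. It measured 7.23, 13.1 and 9.23 CPM in CD8+CD127-PD-1+ libraries, against 1.75, 2.93 and 2.36 CPM in CD8+CD127+PD-1- libraries (log2 fold change 2.07, SE 0.39, adjusted p = 0.00465 by edgeR). Its change in CD4 cells was 2.14 (SE 0.42, adjusted p = 0.00852 by edgeR), a call that did not hold when CD4+CD127-PD-1+ replicate 1 was left out (0.0782). Csf1, the most abundant ligand, measured 17.3 and 38.8 CPM in CD4+CD127-PD-1+ libraries, against 11.4, 7.76 and 13.7 CPM in CD4+CD127+PD-1- libraries (log2 fold change 1.36, SE 0.49, adjusted p = 0.1003 by edgeR). In CD8 cells Csf1 measured 5.84, 15.2 and 17.2 CPM in CD127-PD-1+ libraries, against 5.59, 1.91 and 4.64 CPM in CD127+PD-1- libraries (log2 fold change 1.65, SE 0.47, adjusted p = 0.0362 by edgeR). That call held in 10 of 19 alternatives, with adjusted p from 0.000715 to 0.1297, and was lost with limma-voom (0.0848), with only the groups compared (0.0552) and without CD8+CD127-PD-1+ replicate 2 (0.105) or 3 (0.1297), CD8+CD127+PD-1- replicate 2 (0.119) or 3 (0.0566) or CD4+CD127+PD-1- replicate 1 (0.0522), among others.

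Pattern recognition and scavenger receptors ranged from the largest change of the module to almost none. Mrc1 (chromosome 2, 14229392 to 14332057, plus strand) encodes the mannose receptor CD206 of tissue macrophages. It measured 274 and 132 CPM in CD4+CD127-PD-1+ libraries, against 1.33, 2.38 and 0.930 CPM in CD4+CD127+PD-1- libraries. In CD8 cells Mrc1 measured 70.8, 159 and 152 CPM in CD127-PD-1+ libraries, against 1.15, 3.59 and 0.554 CPM in CD127+PD-1- libraries. Its fitted log2 fold changes of 6.998 (SE 0.61) and 6.19 (SE 0.58) in CD4 and CD8 cells were the largest of the 34 members in both lineages. Tlr7, an endosomal sensor of RNA that pDC and B cells also use, was the most abundant of the others. It measured 71.7 and 29.9 CPM in CD4+CD127-PD-1+ libraries, against 63.1, 32.1 and 30.4 CPM in CD4+CD127+PD-1- libraries. In CD8 cells Tlr7 measured 31.8, 58.2 and 78.2 CPM in CD127-PD-1+ libraries, against 43.4, 21.8 and 26.8 CPM in CD127+PD-1- libraries. The states overlapped in both lineages.

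Msr1, the scavenger receptor A gene, ranged from 21.9 to 35.2 CPM in CD4+CD127-PD-1+ libraries, against 0.166 to 0.558 CPM in CD4+CD127+PD-1- libraries. Cd14, the lipopolysaccharide co-receptor gene, ranged from 18.1 to 61.5 CPM in CD8+CD127-PD-1+ libraries, against 0.733 to 1.52 CPM in CD8+CD127+PD-1- libraries. Clec7a, which encodes the beta-glucan receptor Dectin-1, ranged from 7.59 to 21.9 CPM in CD4+CD127-PD-1+ libraries, against 1.12 to 3.32 CPM in CD4+CD127+PD-1- libraries. For each of these genes the states did not overlap in either lineage. Tlr2, the receptor for bacterial lipoproteins, which some T cells also transcribe, ranged from 28.4 to 74.3 CPM in CD8+CD127-PD-1+ libraries, against 3.33 to 5.50 CPM in CD8+CD127+PD-1- libraries. Cd163, the scavenger receptor for haptoglobin and haemoglobin, was the exception among restricted members, since its states overlapped in both lineages. It measured 5.04 and 1.04 CPM in CD4+CD127-PD-1+ libraries, against 0.829, 2.07 and 0.372 CPM in CD4+CD127+PD-1- libraries.

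Among adhesion, costimulation and surface markers, Adgre1 (chromosome 17, 57358691 to 57483527, plus strand) encodes F4/80, the classical surface marker of mouse macrophages. It measured 184 and 72.3 CPM in CD4+CD127-PD-1+ libraries, against 4.72, 1.92 and 0.930 CPM in CD4+CD127+PD-1- libraries. In CD8 cells Adgre1 measured 87.9, 116 and 149 CPM in CD127-PD-1+ libraries, against 1.41, 3.15 and 0.554 CPM in CD127+PD-1- libraries. No libraries of the states overlapped, and the fitted log2 fold changes were 5.65 (SE 0.61) and 6.11 (SE 0.61) in CD4 and CD8 cells. Itgam encodes CD11b, an integrin of myeloid cells that NK cells and some stimulated CD8 T cells also carry. It measured 120.0 and 86.4 CPM in CD4+CD127-PD-1+ libraries, against 22.4, 13.3 and 10.7 CPM in CD4+CD127+PD-1- libraries. In CD8 cells Itgam measured 93.1, 199.7 and 194 CPM in CD127-PD-1+ libraries, against 29.6, 23.8 and 23.8 CPM in CD127+PD-1- libraries. The states did not overlap, with smaller fitted log2 fold changes of 2.74 (SE 0.34) and 2.65 (SE 0.32). Cd86, a costimulatory ligand of CD28, ranged from 69.4 to 114 CPM in CD8+CD127-PD-1+ libraries, against 13.7 to 32.5 CPM in CD8+CD127+PD-1- libraries.

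The adaptor and the transcription factors divided. Tyrobp encodes DAP12, an adaptor of activating receptors in myeloid cells, pDC, NK cells and some T cells. It measured 107 and 58.4 CPM in CD4+CD127-PD-1+ libraries, against 121, 81.9 and 72.6 CPM in CD4+CD127+PD-1- libraries. In CD8 cells Tyrobp measured 75.6, 171 and 143 CPM in CD127-PD-1+ libraries, against 128, 57.9 and 69.6 CPM in CD127+PD-1- libraries. It was the 1 member with a fitted log2 fold change below 0, at -0.15 (SE 0.40) in CD4 cells against 0.61 (SE 0.36) in CD8 cells, and the states overlapped in both lineages. Spi1, which encodes PU.1, measured 50.0 and 20.1 CPM in CD4+CD127-PD-1+ libraries, against 10.2, 7.14 and 5.40 CPM in CD4+CD127+PD-1- libraries. In CD8 cells Spi1 measured 38.3, 61.3 and 68.8 CPM in CD127-PD-1+ libraries, against 15.2, 10.04 and 5.20 CPM in CD127+PD-1- libraries. Spi1 was the only member of the pDC or B cell class without overlap in both lineages. Cebpa ranged from 4.60 to 9.67 CPM in CD8+CD127-PD-1+ libraries, against 1.01 to 1.32 CPM in CD8+CD127+PD-1- libraries. Cebpb, the related factor of inflammatory responses, stayed between 0.941 and 5.53 CPM in all 11 libraries, and its states overlapped in both lineages.

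Of the lysosomal proteases, Ctss, Ctsd and Ctsb measured at least 68.1 CPM in every library. Ctss encodes cathepsin S, which trims the invariant chain of MHC class II. It measured 352 and 233 CPM in CD4+CD127-PD-1+ libraries, against 102, 72.1 and 76.0 CPM in CD4+CD127+PD-1- libraries. In CD8 cells Ctss measured 196, 400.3 and 429.6 CPM in CD127-PD-1+ libraries, against 102, 70.3 and 68.1 CPM in CD127+PD-1- libraries. Its states did not overlap, and the fitted log2 fold changes were 1.81 (SE 0.31) and 2.10 (SE 0.29) in CD4 and CD8 cells. Ctsd (chromosome 7, 142375911 to 142388038, minus strand) encodes the aspartic protease cathepsin D. It measured 212 and 205 CPM in CD4+CD127-PD-1+ libraries, against 98.7, 90.6 and 93.3 CPM in CD4+CD127+PD-1- libraries. In CD8 cells Ctsd measured 293, 265 and 237 CPM in CD127-PD-1+ libraries, against 179.7, 137 and 204 CPM in CD127+PD-1- libraries. Its states did not overlap, and the fitted log2 fold changes were 1.15 (SE 0.15) and 0.61 (SE 0.14). Ctsb, which encodes cathepsin B, ranged from 265 to 305 CPM in CD4+CD127-PD-1+ libraries, against 114 to 167 CPM in CD4+CD127+PD-1- libraries. Lgmn, which encodes the asparagine-specific protease legumain, had the largest change of the 4, with fitted log2 fold changes of 2.83 (SE 0.38) and 3.40 (SE 0.37).

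Among other phagosome and lysosome proteins, Lyz2 (chromosome 10, 117277331 to 117282321, minus strand) encodes the lysozyme of macrophages and neutrophils and had the highest mean CPM of the module. It measured 800.3 and 348 CPM in CD4+CD127-PD-1+ libraries, against 38.5, 49.8 and 14.6 CPM in CD4+CD127+PD-1- libraries. In CD8 cells Lyz2 measured 480.1, 993 and 868 CPM in CD127-PD-1+ libraries, against 53.7, 54.3 and 21.4 CPM in CD127+PD-1- libraries. Its states did not overlap, and the fitted log2 fold changes were 4.06 (SE 0.55) and 4.18 (SE 0.53). Mpeg1 encodes perforin-2, a pore-forming protein of phagosomes that pDC and B cells also make. It measured 333 and 156 CPM in CD4+CD127-PD-1+ libraries, against 312, 175 and 177 CPM in CD4+CD127+PD-1- libraries. In CD8 cells Mpeg1 measured 425, 410.3 and 357 CPM in CD127-PD-1+ libraries, against 367, 164 and 137 CPM in CD127+PD-1- libraries. The states overlapped in both lineages. Slc11a1, a metal ion transporter of phagosomes, ranged from 13.7 to 30.8 CPM in CD4+CD127-PD-1+ libraries, against 0 to 0.414 CPM in CD4+CD127+PD-1- libraries. Cd68, a lysosomal membrane protein, ranged from 60.0 to 126.95 CPM in CD4+CD127-PD-1+ libraries, against 25.1 to 53.5 CPM in CD4+CD127+PD-1- libraries. Its fold change was thus small for a restricted member. In CD4+CD127+PD-1- replicates 1, 2 and 3 Cd68 measured 53.5, 28.3 and 25.1 CPM, beside pDC marker sums of 1544, 754 and 852 CPM. Conventional dendritic cell markers summed to 221, 110 and 95.6 CPM in these replicates. In the CD8+CD127+PD-1- replicates Cd68 measured 51.9, 26.5 and 27.8 CPM, beside pDC sums of 1201, 606 and 596 CPM. The conventional dendritic cell sums there were 469, 189 and 202 CPM. Between the states Cd68 and the pDC sum ran opposite ways. The part of pDC or of conventional dendritic cells in the level of Cd68 was not tested. Cybb, the catalytic subunit of the phagocyte oxidase, overlapped between the CD4 states but not between the CD8 states. Pld4, a nuclease of endolysosomes, did so too, with fitted log2 fold changes of 0.06 (SE 0.35) and 0.82 (SE 0.32).

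In the group of lipid, haem, matrix and MS4A genes, Apoe (chromosome 7, 19696109 to 19699188, minus strand) encodes apolipoprotein E. It measured 256 and 156 CPM in CD4+CD127-PD-1+ libraries, against 3.32, 3.92 and 2.70 CPM in CD4+CD127+PD-1- libraries. In CD8 cells Apoe measured 92.8, 196 and 174 CPM in CD127-PD-1+ libraries, against 5.05, 7.77 and 2.91 CPM in CD127+PD-1- libraries. Its states did not overlap, and the fitted log2 fold changes were 5.95 (SE 0.42) and 4.88 (SE 0.38). Tgfbi, a matrix protein gene of monocytes and macrophages, measured 79.6 and 59.0 CPM in CD4+CD127-PD-1+ libraries, against 4.72, 8.14 and 2.23 CPM in CD4+CD127+PD-1- libraries. In CD8 cells Tgfbi measured 62.2, 179.9 and 132 CPM in CD127-PD-1+ libraries, against 12.3, 8.87 and 4.64 CPM in CD127+PD-1- libraries. The states did not overlap here either. Hmox1, the haem-degrading oxygenase, which regulatory T cells can also transcribe, ranged from 50.9 to 70.2 CPM in CD4+CD127-PD-1+ libraries, against 5.77 to 5.97 CPM in CD4+CD127+PD-1- libraries. Aif1, which encodes the actin-binding protein IBA1, ranged from 14.02 to 28.2 CPM in CD4+CD127-PD-1+ libraries, against 1.30 to 1.82 CPM in CD4+CD127+PD-1- libraries. The membrane protein genes Ms4a7 and Ms4a6c differed from each other. Ms4a7 ranged from 33.5 to 55.9 CPM in CD8+CD127-PD-1+ libraries, against 0.208 to 1.47 CPM in CD8+CD127+PD-1- libraries. Ms4a6c ranged from 16.6 to 31.0 CPM in CD8+CD127-PD-1+ libraries, against 12.1 to 14.2 CPM in CD8+CD127+PD-1- libraries.

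Levels per kilobase of exon (CPM divided by the merged exon length in GENCODE M21) put the members in order within a group. In CD4+CD127-PD-1+ cells Lyz2 led with 436 ± 243 CPM per kb, followed by Ctss with 215 ± 62.4, Tyrobp with 124 ± 51.6 and Apoe with 96.3 ± 33.0 CPM per kb (SD, n = 2). Apoe, Ctsd (88.7 ± 2.15 CPM per kb) and Cd68 (74.4 ± 37.6 CPM per kb) did not differ beyond their spread. The lowest were Cd163 with 0.557 ± 0.519 and Trem2 with 0.498 ± 0.277 CPM per kb. In CD4+CD127+PD-1- cells the order was led by members shared with other cell types: Tyrobp with 138 ± 38.5, Ctss with 61.3 ± 11.9, Mpeg1 with 51.0 ± 18.1 and Ctsd with 40.1 ± 1.75 CPM per kb (SD, n = 3). The highest restricted members there were Cd68 with 28.4 ± 12.3 and Lyz2 with 26.1 ± 13.6 CPM per kb. In CD8+CD127-PD-1+ cells the order again began with Lyz2 (593 ± 203), Ctss (252 ± 93.7) and Tyrobp (195 ± 73.6 CPM per kb; SD, n = 3). In CD8+CD127+PD-1- cells it began with Tyrobp (127.5 ± 55.9), Ctsd (73.8 ± 14.6) and Ctss (58.9 ± 13.8 CPM per kb; SD, n = 3).

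CD4 and CD8 cells of the CD127-PD-1+ state were then compared, which asks whether the module differs between the lineages where it is high. Called were 0 members higher and 0 lower in CD4 cells, with 2.44% of all tested genes called in either direction (edgeR quasi-likelihood test, Benjamini-Hochberg adjustment, threshold 0.05). At an unadjusted p under 0.05 there were 0 members higher and 1 lower (13.3% of all tested genes in either direction), and DESeq2 and limma-voom also called 0 in each direction. The smallest adjusted p over the members was 0.362, for Ctsd (log2 fold change -0.35, SE 0.15, CD4 over CD8). Fitted log2 fold changes ran from -0.87 for Cebpb to 1.47 for Cd163. The 95% intervals were wide, with a median half-width of 0.98 on the log2 scale. The interval lay within 2-fold in either direction for 6 of 34 members (Axl, Ctss, Ctsb, Ctsd, Lgmn and Cebpa), and for the other 28 it reached past 2-fold. For Mrc1 the log2 fold change was 0.67, with an interval from -0.35 to 1.69. For Csf1r it was 0.07, with an interval from -1.08 to 1.23. Libraries of the lineages did not overlap for 2 members, Ctsd and Mpeg1, both lower in CD4 cells (13.5% of all tested genes), and for 0 with CD4 on top (14.3%). By class, the median log2 fold change was 0.02 for restricted, -0.51 for T cell and -0.45 for pDC or B cell members, beside -0.02 over all tested genes. Below 0 were 9 of 19, 8 of 10 and 5 of 5 members of these classes, and the difference between the classes was not tested. Members varied together between libraries of a group, as given below, so nothing is read from these counts.

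Within the CD127+PD-1- state, 1 member passed the test in the reported fit, which did not pair the libraries by number. Ctsd fell in CD4 relative to CD8 cells, with a log2 fold change of -0.88 (SE 0.14, adjusted p = 0.00354 by edgeR). The 3 CD4+CD127+PD-1- libraries, at 90.6 to 98.7 CPM, all lay below the 3 CD8+CD127+PD-1- libraries, at 137 to 204 CPM. The call held in all 19 alternatives, with log2 fold changes from -1.03 to -0.75 and adjusted p values from 7.88e-07 to 0.0179. Called were 0 members higher and 1 lower, beside 4.42% of all tested genes in either direction, and 1 member higher and 3 lower at an unadjusted p under 0.05 (17.7% of all tested genes). By DESeq2 1 member, Axl, was called higher. Axl had a log2 fold change of 1.03 (SE 0.36, adjusted p = 0.146 by edgeR), with 10.9 to 13.6 CPM in CD4+CD127+PD-1- libraries against 4.85 to 6.96 CPM in CD8+CD127+PD-1- libraries. Its adjusted p ran from 0.00916 to 0.434 over 19 alternatives, and it was called in 4 of them. Cd86 (log2 fold change -0.86, SE 0.39, adjusted p = 0.273 by edgeR) was called lower in 1 of 19 alternatives. It passed with a replicate block by a second number in the labels (adjusted p = 0.0215 by edgeR). Libraries did not overlap for Axl and Lgmn with CD4 on top (11.9% of all tested genes) and for Ctsd and Itgam with CD4 below (10.9%). The interval lay within 2-fold for 7 members (Cd68, Tyrobp, Ctss, Ctsb, Ms4a6c, Mpeg1 and Pld4). Trem2, Mertk, Slc11a1, Msr1, Ms4a7, Cd14, Cd163 and Cebpb had no more than 33 counts in any CD127+PD-1- library. The counts over 34 members thus include genes hardly measured in this comparison.

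**Figure D4:**
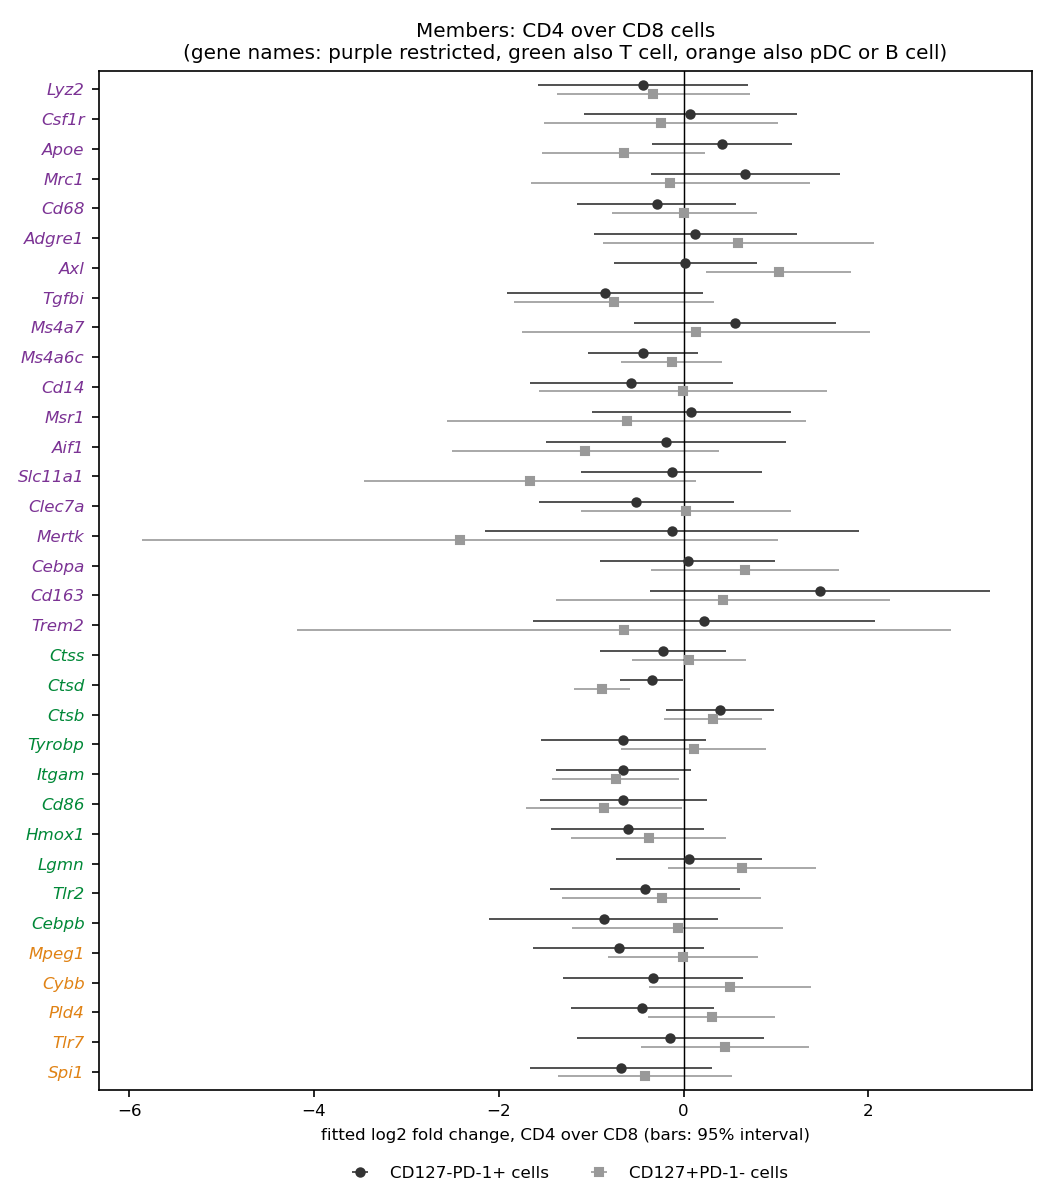
Fitted log2 fold change of each member, CD4 over CD8 (x axis, bars show the 95% interval), in CD127-PD-1+ cells (dark circles) and CD127+PD-1- cells (grey squares). Ctsd at -0.88 in CD127+PD-1- cells is the called member. Without a call, the intervals of Axl, Itgam and Cd86 in those cells and of Ctsd in CD127-PD-1+ cells also lie to 1 side of 0.

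The members also varied together between libraries of 1 group. CD4+CD127-PD-1+ replicate 1 was above replicate 2 for 33 of 34 members, Cebpb being the exception, with a median ratio of 1.99, where the median over all tested genes was 1.03 and 52.4% of them were above 1. The median ratio was 2.11 over restricted, 1.45 over T cell and 2.27 over pDC or B cell members. In the CD8+CD127-PD-1+ group, replicate 2 was above replicate 1 for 31 of 34 members (median ratio 1.94). Of all tested genes 51.1% were above 1 there, with a median of 1.01. Replicate 3 was above replicate 1 for 32 of 34 members (median ratio 2.07), beside 53.2% of all tested genes, with a median of 1.02. Replicates 2 and 3 were alike, with a median ratio of 0.989 and 16 of 34 members above 1. These counts are a description, since the members of 1 library share its source.
Marker lists of other cells moved with this spread in part. In CD4+CD127-PD-1+ replicates 1 and 2 the restricted members summed to 2478 and 1174 CPM, the pDC markers to 483 and 138 CPM, and the pan-T markers to 2860 and 3718 CPM. Of the pDC sums, 167 and 12.0 CPM came from Klk1, named after its values were seen, which kidney tubules also transcribe. The tubule markers summed to 27.0 and 50.0 CPM in replicates 1 and 2, the other way round, and the source of Klk1 was not tested. The conventional dendritic cell markers summed to 181 and 68.9 CPM and the B and plasma cell markers to 337 and 167 CPM in the same replicates. Of the B and plasma cell sums, 267 and 155 CPM came from Ighm. In CD8+CD127-PD-1+ replicates 1, 2 and 3 the restricted members summed to 1193, 2371 and 2335 CPM and the neutrophil markers to 50.9, 272 and 348 CPM. There the conventional dendritic cell markers summed to 647, 312 and 329 CPM, highest where the restricted members were lowest, unlike in the CD4+CD127-PD-1+ replicates. The part of these cells in the members' levels was not tested.

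**Figure D5:**
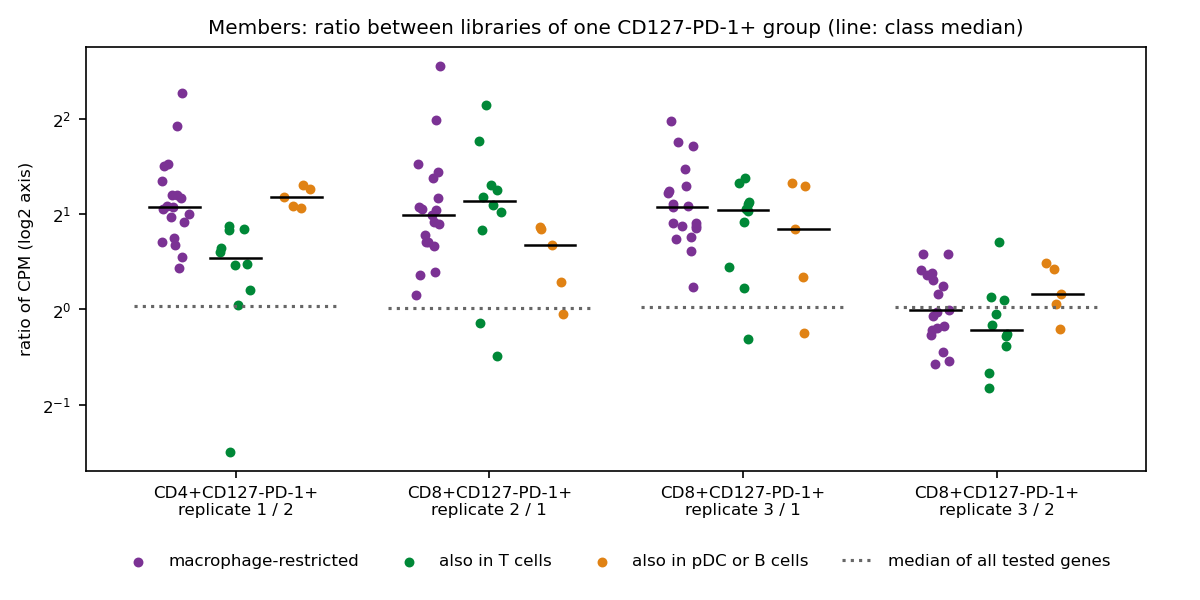
Ratio of CPM between libraries of the same CD127-PD-1+ group for each member (y axis, log2 scale), coloured by class, with class medians as lines and the median of all tested genes as a dotted line. The member medians are 1.99, 1.94 and 2.07 in the first 3 comparisons and 0.989 between CD8+CD127-PD-1+ replicates 3 and 2.

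A second list held 28 genes of macrophages and monocytes that are not members, of which 23 were tested. The same state contrasts as for the members apply, so the calls describe neighbours of the module and are no independent evidence of its direction. In CD4 cells 13 of 23 rose and 0 fell in CD127-PD-1+ cells, with 6.81% and 4.87% of all tested genes called in those directions. In CD8 cells 18 of 23 rose and 0 fell, beside 9.05% and 6.56% of all tested genes. The list's median log2 fold change was 1.86 in CD4 and 3.29 in CD8 cells. C3ar1, the receptor for the complement fragment C3a, measured 247 and 87.0 CPM in CD4+CD127-PD-1+ libraries, against 2.88 to 3.53 CPM in CD4+CD127+PD-1- libraries. It measured 102 to 152 CPM in CD8+CD127-PD-1+ libraries, against 2.08 to 2.49 CPM in CD8+CD127+PD-1- libraries (log2 fold change 5.86, SE 0.38, adjusted p = 1.62e-05 by edgeR). The resident macrophage markers Vsig4 and Timd4 were at or near 0: Vsig4 had counts in 2 of 11 libraries, at 0.0747 and 0.149 CPM, and Timd4 did not exceed 1.03 CPM in any library.

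The second list was also compared between lineages. In CD127-PD-1+ cells 3 of 23 fell in CD4 relative to CD8 cells and 0 rose, beside 0.843% and 1.60% of all tested genes. Ly6c2, a surface protein of inflammatory monocytes and of CD8 T cells, measured 22.9 and 16.4 CPM in CD4+CD127-PD-1+ libraries, against 62.7, 124 and 61.5 CPM in CD8+CD127-PD-1+ libraries (log2 fold change -2.08, SE 0.39, adjusted p = 0.0154 by edgeR). Leaving out CD4+CD127-PD-1+ replicate 1 or replicate 2 ended that call (adjusted p of 0.0551 and 0.155 by edgeR). The monocyte genes Vcan and Chil3, named here after their values were seen, were the other calls. Vcan measured 7.46 and 4.48 CPM in CD4+CD127-PD-1+ libraries, against 9.42, 61.7 and 55.4 CPM in CD8+CD127-PD-1+ libraries (log2 fold change -2.82, SE 0.63, adjusted p = 0.0389 by edgeR). Chil3 measured 4.24 and 3.05 CPM in CD4+CD127-PD-1+ libraries, against 6.72, 49.3 and 33.9 CPM in CD8+CD127-PD-1+ libraries (log2 fold change -3.04, SE 0.70, adjusted p = 0.0458 by edgeR). For both, CD8+CD127-PD-1+ replicate 1 was near the CD4 libraries, and the calls held in 6 and 7 of 19 alternatives, being lost among others without either CD4+CD127-PD-1+ library and with limma-voom (adjusted p = 0.208 for Vcan and 0.220 for Chil3).

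In CD127+PD-1- cells 2 of 23 genes of this list fell in CD4 relative to CD8 cells and 1 rose, beside 1.66% and 2.76% of all tested genes. Cx3cr1, the fractalkine receptor of monocytes and effector CD8 T cells, measured 2.33 to 3.07 CPM in CD4+CD127+PD-1- libraries, against 12.2 to 26.5 CPM in CD8+CD127+PD-1- libraries (log2 fold change -2.84, SE 0.38, adjusted p = 0.00148 by edgeR). Ly6c2 measured 23.9 to 32.6 CPM in CD4+CD127+PD-1- libraries, against 80.8 to 179 CPM in CD8+CD127+PD-1- libraries (log2 fold change -2.17, SE 0.33, adjusted p = 0.00282 by edgeR). Both calls held in all 19 alternatives. Gpnmb, named after its values were seen, had a log2 fold change of 1.72 (SE 0.41, adjusted p = 0.0368 by edgeR) and was called in 12 of 19 alternatives, being lost, among others, without any 1 of the 3 CD4+CD127+PD-1- libraries (adjusted p of 0.0750 to 0.117), without CD8+CD127+PD-1- replicate 1 or 2 (0.124 and 0.112) and with only the groups compared (0.0524).

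Markers of pDC, which also transcribe members such as Pld4 and Tlr7, ran the other way between the states. They summed to 138 and 483 CPM in CD4+CD127-PD-1+ libraries, against 754 to 1544 CPM in CD4+CD127+PD-1- libraries. In CD8 cells they summed to 233 to 301 CPM in CD127-PD-1+ libraries, against 596 to 1201 CPM in CD127+PD-1- libraries. Of 10 markers, 6 fell and 0 rose in CD4 cells (4.87% of all tested genes fell). In CD8 cells 5 fell and 0 rose (6.56% fell, edgeR, adjusted). This list and the marker lists below were chosen with earlier results of these libraries known, so their counts are no independent evidence. Among the CD4 calls Tcf4, a transcription factor of pDC, had a log2 fold change of -1.65 (adjusted p = 0.0423 by edgeR), a call that held in 10 of 19 alternatives (adjusted p up to 0.239, without CD4+CD127-PD-1+ replicate 2). Klk1 had a log2 fold change of 1.49 (SE 0.81, adjusted p = 0.281 by edgeR) in CD4 cells. Ccr9, a gut-homing receptor also of pDC, measured 9.003 to 25.2 CPM in CD8+CD127-PD-1+ libraries, against 105 to 203 CPM in CD8+CD127+PD-1- libraries (log2 fold change -3.24, SE 0.47, adjusted p = 0.000995 by edgeR). The levels of Pld4, Tlr7, Mpeg1 and Cybb thus stood beside a pDC sum that was lower in CD127-PD-1+ cells. The part of pDC in those levels was not tested.
Markers of neutrophils, which also carry Lyz2, summed to 37.5 and 51.0 CPM in CD4+CD127-PD-1+ libraries, against 11.4 to 15.7 CPM in CD4+CD127+PD-1- libraries. In CD8 cells they summed to 50.9 to 348 CPM in CD127-PD-1+ libraries, against 3.74 to 27.8 CPM in CD127+PD-1- libraries. Of 11 markers, 1 (Csf3r) rose in CD4 cells (6.81% of all tested genes) and 8 rose in CD8 cells (9.05%), and 0 fell in either. Csf3r, the receptor for granulocyte colony-stimulating factor, measured 22.3 and 17.0 CPM in CD4+CD127-PD-1+ libraries, against 0.651 to 1.91 CPM in CD4+CD127+PD-1- libraries (log2 fold change 3.87, SE 0.67, adjusted p = 0.00443 by edgeR). With limma-voom that call was lost (adjusted p = 0.0515). The part of neutrophils in the level of Lyz2 was not tested.

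The other marker lists were summed in the same way. Conventional dendritic cell markers summed to 181 and 68.9 CPM in CD4+CD127-PD-1+ replicates 1 and 2, against 95.6 to 221 CPM in CD4+CD127+PD-1- libraries, and 0 of 7 were called in either state comparison. B and plasma cell markers summed to 363 to 590.1 CPM in CD8+CD127-PD-1+ libraries, against 242 to 383 CPM in CD8+CD127+PD-1- libraries, with 3 of 8 called higher (9.05% of all tested genes) and 0 lower. Most of each sum came from Ighm, at 243 to 373 CPM and 226 to 343 CPM in these states. Ighm was not called (log2 fold change -0.0089, SE 0.23, adjusted p = 0.987 by edgeR). In CD4 cells 0 of these 8 rose and 1 (Mzb1) fell (4.87%), a call lost with limma-voom (adjusted p = 0.0509) and without CD4+CD127-PD-1+ replicate 2 (0.112). NK cell markers summed to 18.6 and 28.5 CPM in CD4+CD127-PD-1+ libraries, against 20.01 to 35.7 CPM in CD4+CD127+PD-1- libraries, with 0 of 5 called. In CD8 cells they summed to 247 to 489 CPM in CD127-PD-1+ libraries, against 165 to 724 CPM in CD127+PD-1- libraries. Most of each CD8 sum came from Gzma, at 176 to 424 CPM and 114 to 656 CPM in these states, so the sums mostly follow 1 gene. Eomes added 38.7 to 81.3 CPM and 44.4 to 57.2 CPM. No level of NK cells is read from these sums. Ncr1 measured 7.01 to 16.6 CPM in CD8+CD127-PD-1+ libraries, against 2.09 to 3.26 CPM in CD8+CD127+PD-1- libraries. It was the 1 of 5 called higher in CD8 cells (9.05% of all tested genes). The Ncr1 call held in 15 of 19 alternatives and was lost without CD8+CD127-PD-1+ replicate 3 (adjusted p = 0.101 by edgeR) and without CD8+CD127+PD-1- replicate 1 (0.0766) or 2 (0.0719). Tubule markers summed to 14.6 to 59.8 CPM in the 5 CD127-PD-1+ libraries, against 7.21 to 257 CPM in the 6 CD127+PD-1- libraries, with 0 of 7 called. Endothelial and podocyte markers summed to 27.2 to 64.8 CPM in CD127-PD-1+ libraries, against 65.6 to 154 CPM in CD127+PD-1- libraries. Most of each sum came from Pecam1, at 25.4 to 63.4 CPM and 54.3 to 134 CPM in these states, so these sums too mostly follow 1 gene. Of the markers, 2 of 3 tested (Cdh5 and Pecam1) were lower in each lineage, beside 4.87% of all tested genes in CD4 and 6.56% in CD8 cells. The CD4 call of Pecam1 did not hold when either CD4+CD127-PD-1+ library was left out (adjusted p of 0.0831 and 0.0530 by edgeR). Red cell and platelet markers summed to no more than 37.9 CPM in any library, with Pf4, also a macrophage gene, higher by 5.60 (SE 0.87, adjusted p = 0.00242 by edgeR) in CD4+CD127-PD-1+ cells on the log2 scale.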

How the data were processed

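RNA of 11 libraries was measured by SPIA (single primer isothermal amplification) RNA-seq from 2 ng of RNA, with 75-base single reads on a NextSeq550, per the labels' protocols. The deposited table holds raw read counts per gene made by the authors. The tools STAR and featureCounts and the build GRCm38 are named in the submitters' processing notes. Versions, annotation release and strand handling are not given there or in the labels, so overlapping and antisense genes may share reads. Of the columns, 1 without a matching label was not used. A second row named Clec7a held 0 counts in every library, and the other row was used.

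Counts were fitted in R 4.3.3 with edgeR 4.0.16 (filterByExpr defaults, 16365 genes kept, TMM scaling, a quasi-likelihood fit of 4 group means to all 11 libraries). Benjamini-Hochberg adjustment covered every tested gene, with a threshold of 0.05. CPM use TMM-scaled totals (raw totals of 10.6 to 16.1 M counts, scaling factors of 0.838 to 1.09). SE is the fitted log2 fold change over the root of its F statistic. Floors and intervals cover counting error or spread between pools only, since the reads carry no molecular identifiers. Replicate pairs differed beyond sampling noise (chi-square per gene of 10.9 to 27.8), so none was merged. The model was tested on simulated counts. Alternatives used DESeq2 1.42.0, limma 3.58.1 (voom), RLE size factors, plain library totals for sums, no filter, only the groups compared, thinning, replicate blocks and each library left out.

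Members, classes and marker lists (pan-T, pDC, conventional dendritic, B and plasma, NK, neutrophil, tubule, endothelial and podocyte, red cell and platelet, other macrophage, and ligand genes) were chosen with earlier results of these data known. Values in every library are given for the 2 members with the highest mean CPM in each of 7 role groups, members called between lineages and members with a fitted state change below 0. Other members are given mostly by range. From other lists the called gene with the smallest p and the most abundant gene were eligible to be named. Coordinates come from GENCODE M21 (GRCm38), in which 45143 of 46078 identifiers were found. Promoters come from RefSeq (GRCm38.p6).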

Additional observations from a re-analysis of the deposited data

How the results depend on the processing

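Over 19 alternatives (8 settings and 11 left-out libraries), the median state change of the members ran from 2.42 to 3.25 in CD4 and from 2.80 to 3.34 in CD8 cells on the log2 scale. Members over 2-fold higher numbered 24 to 28 in CD4 and 24 to 32 in CD8 cells. Called between lineages in CD127-PD-1+ cells were 0 members in each direction under all 19. In CD127+PD-1- cells 1 member was called higher in CD4 cells, against 0 in the reported fit, with no filter on low counts, with DESeq2, with only the groups compared and without CD8+CD127-PD-1+ replicate 1. That member was Axl each time (adjusted p of 0.00916, 0.0390, 0.0250 and 0.0455), and leaving out single libraries gave 0 to 1 called higher and 1 called lower. With no filter 2 members were called lower, Ctsd and Itgam (adjusted p = 0.0459 for Itgam); the cause was not tested. Of the other macrophage genes, 9 to 15 were called higher in CD4 and 17 to 18 in CD8 cells when single libraries were left out. The summed restricted members ran from 1169 to 2456 CPM in CD4+CD127-PD-1+ and from 1717 to 2373 CPM in CD8+CD127-PD-1+ cells, where 2 and 3 libraries limit the precision.

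Replicate numbers in the titles and in a second label were not taken to pair the samples, since not every pair's correlation was over 0.1. Correlations of deviations passed that level in 7 of 15 pairs for the title numbers (-0.21 to 0.32) and in 10 of 12 for the others (0.00109 to 0.33). With the replicate block by title number the counts between lineages in CD127+PD-1- cells were 0 higher and 1 lower, and the call of Gpnmb was lost (adjusted p = 0.0513). With the replicate block by the second number they were 0 higher and 2 lower, Cd86 joining Ctsd (adjusted p = 0.0215). The block left the counts in CD127-PD-1+ cells at 0.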
